A study of Homo sapiens with 6 samples.

Results

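The RNA levels of 56 genes of actin stress fibres and focal adhesions were compared between control and ZNF148-depleted breast cancer cells. The genes were chosen by name, as actins, their crosslinkers, tropomyosins and other side-binding proteins, filament elongation, severing and capping factors, adhesion plaque and PDZ-LIM proteins, myosins, ERM membrane linkers, and the transcription factors SRF, MKL1 and MKL2. The choice was made with earlier results of these data known. These genes are 56 of the symbols behind 22414 gene values in the table. MYL12A and MYL12B share 1 value, so that the 56 symbols gave 55 values. Of these, 54 averaged 1 FPKM or more and were tested (FPKM being fragments mapped to a transcript, scaled by its length and by the mapped fragments of the sample), out of 11522 genes tested. CNN1, the smooth muscle calponin, averaged less.

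MDA-MB-231 is an established breast cancer cell line of the basal subtype. Of 6 RNA-seq samples, 3 (shCtr) came from cells transduced with a lentivirus carrying a hairpin against luciferase, and 3 (shZNF148) from cells given the hairpin against ZNF148, a zinc finger transcription factor. Both groups were transduced for 48 h and then selected in 0.5 µg/ml puromycin for 24 h before total RNA was extracted. The comparison asks which transcripts differ shortly after ZNF148 is depleted, and the labels name 1 hairpin for each group, so that an effect of ZNF148 loss and one of that hairpin cannot be told apart.

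As background, stress fibres are bundles of actin filaments held together by alpha-actinin and other crosslinkers, made contractile by non-muscle myosin II and stabilised along their length by tropomyosins. They end in focal adhesions, plaques in which talin, vinculin, paxillin and LIM proteins such as zyxin link filaments to integrins. When actin monomers are taken up into filaments, the coactivators MKL1 and MKL2 (also called MRTF-A and MRTF-B) enter the nucleus and activate many of these same genes together with SRF, which binds the CArG box.

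ZNF148 itself was read at 3.72, 4.36 and 4.30 FPKM in shCtr replicates 1, 2 and 3, while shZNF148 replicates 1, 2 and 3 gave 0.914, 0.282 and 0.834 FPKM. The groups did not overlap, and the shZNF148 mean was 16.4% of the shCtr mean. The log2 fold change, taken after adding 1 FPKM to each value, understates changes at such low levels. It was -1.63 ± 0.18 (SE, n = 3 a group), with an adjusted p = 0.00814 in limma's test. Summed FPKM per sample differed by group without overlap. Control totals spanned 497730 to 507312, whereas depleted totals spanned 469594 to 488173. How much of the small falls in abundant genes goes with these lower totals was not tested. The number of reads behind the values is unknown, which limits what can be said of low values. VIM, CD44, AXL and CAV1, which mark this mesenchymal line, were at 193 FPKM or more in every sample, while ESR1 was listed at 0 in all 6. Of the other luminal and epithelial markers read, GATA3 was at 7.53 to 9.24 FPKM and EPCAM at 7.996 to 11.08 FPKM. PGR, FOXA1 and CDH1 were at most 0.083, 0.0345 and 0.491 FPKM. Nothing in the labels says that replicates came from separate cultures, so the p-values measure the spread between these samples, which may be technical.

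RefSeq promoter windows were used to show what these genes carry at their start sites. Each window runs from 250 bases before to 50 bases after an annotated start in GRCh38.p14, so that its last stretch is the beginning of exon 1, and a gene may have several. Windows were given for 50 of the 56 members, MKL1 and MKL2 being matched by the newer symbols MRTFA and MRTFB, and the other 6 are ACTB, FSCN1, TAGLN, PFN2, PDLIM2 and MYL9. They were searched on both strands for the CArG box and for CCCCTCCCC, a C-rich word of the kind bound by ZNF148 and related zinc finger factors. The 2 motifs can share at most 2 bases, at their ends, since a CArG box has only A and T in its core. The 3 windows with CCCCTCCCC (or its complement GGGGAGGGG) that belong to members lower by more than 1.5-fold, chosen because they hold the word, and the window with the CArG box of ACTG1, are printed 5′ to 3′ on the strand of the gene, with the match in capitals.
FLNC: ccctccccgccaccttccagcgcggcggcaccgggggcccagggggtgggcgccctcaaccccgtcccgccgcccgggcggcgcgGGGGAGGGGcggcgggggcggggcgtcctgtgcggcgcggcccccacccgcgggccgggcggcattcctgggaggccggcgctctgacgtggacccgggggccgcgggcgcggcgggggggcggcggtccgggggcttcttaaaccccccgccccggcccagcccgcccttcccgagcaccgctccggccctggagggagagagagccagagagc
PALLD: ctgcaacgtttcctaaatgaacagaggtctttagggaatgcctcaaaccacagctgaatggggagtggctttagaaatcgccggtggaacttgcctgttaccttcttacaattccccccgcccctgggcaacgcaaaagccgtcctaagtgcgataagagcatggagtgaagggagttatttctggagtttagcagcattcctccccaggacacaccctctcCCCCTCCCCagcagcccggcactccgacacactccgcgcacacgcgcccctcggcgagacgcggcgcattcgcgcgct
TPM2: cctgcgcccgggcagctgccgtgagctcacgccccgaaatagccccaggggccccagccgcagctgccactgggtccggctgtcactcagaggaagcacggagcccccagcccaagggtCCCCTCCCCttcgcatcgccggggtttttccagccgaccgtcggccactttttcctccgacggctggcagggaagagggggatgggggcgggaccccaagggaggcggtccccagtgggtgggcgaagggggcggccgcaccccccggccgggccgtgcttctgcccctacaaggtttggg
ACTG1: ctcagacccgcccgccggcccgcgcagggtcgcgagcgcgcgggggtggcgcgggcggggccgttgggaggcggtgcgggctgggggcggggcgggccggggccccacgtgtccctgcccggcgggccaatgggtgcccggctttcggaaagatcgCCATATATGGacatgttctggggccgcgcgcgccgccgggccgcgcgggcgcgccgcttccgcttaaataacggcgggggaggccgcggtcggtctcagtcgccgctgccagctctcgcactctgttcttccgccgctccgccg

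The FLNC window lies at chr7:128830156-128830455 on the plus strand, with its match beginning 165 bases upstream of the start. That of PALLD is 1 of 3 windows of the gene, at chr4:168631328-168631627 on the plus strand, and its match begins 28 bases upstream. That of TPM2 is 1 of 2 windows, at chr9:35690007-35690306 on the minus strand, with the match 131 bases upstream. The CArG box of ACTG1, at chr17:81512750-81513049 on the minus strand, begins 94 bases upstream. Over all members with a window, a CArG box was found in 8 of 50 (16%), against 1.55% of the 9427 tested genes with a window, and CCCCTCCCC in 15 of 50 (30%), against 12.8%. By window the shares were 8.89% and 16.7% of 90 member windows, against 1.29% and 7.81% of all 35116. The genes with a CArG box were ACTG1, ACTN1, FLNA, TPM4, CNN2, LPP, MYO1E and SRF, whose window held 2. A match is a description of the letters and not a site of binding, and which start these cells used was not examined.

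Across the members, RNA levels were lower more often than higher in shZNF148 cells. Because the list was chosen with earlier results of these data known, its shares beside all genes are descriptions and no independent test. At an adjusted p under 0.05 together with a change of more than 1.5-fold, 6 of 54 members (11.1%) were lower, against 3.83% of all genes tested. They were FLNC, PALLD, TPM2, LIMA1, PDLIM2 and RDX. No member was higher by this rule in limma's test, against 1.94% of all genes, and 1 was higher at an unadjusted p under 0.05, against 16.1%. By adjusted p alone, 16 members (29.6%) were lower, against 8.70% of all genes, and 1 was higher, against 5.88%. The added 10 lower genes were ACTB, ACTG1, ACTN4, VASP, CAPZB, ZYX, TLN1, LPP, PDLIM1 and the value shared by MYL12A and MYL12B, and the gene that was higher was LASP1. In bulk RNA, fewer expressing cells and less RNA per cell cannot be told apart.

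The difference was spread over many members and was small in most. The log2 fold change was negative in 42 of 54 members and positive in 12, and its median was -0.23, beside 0.01 over all genes. In 28 members (51.9%) every shZNF148 value lay below every shCtr value, against 21.3% of all genes, and in 1 member every value lay above, against 20.1%. The other 25 overlapped. By unadjusted p alone, 27 members (50%) were lower, against 18.1% of all genes, and the 11 of these that missed the adjusted threshold were ACTN1, DBN1, TPM1, TPM4, CALD1, ENAH, CAPZA1, PXN, PDLIM4, MYH10 and MSN.

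**Figure D1:**
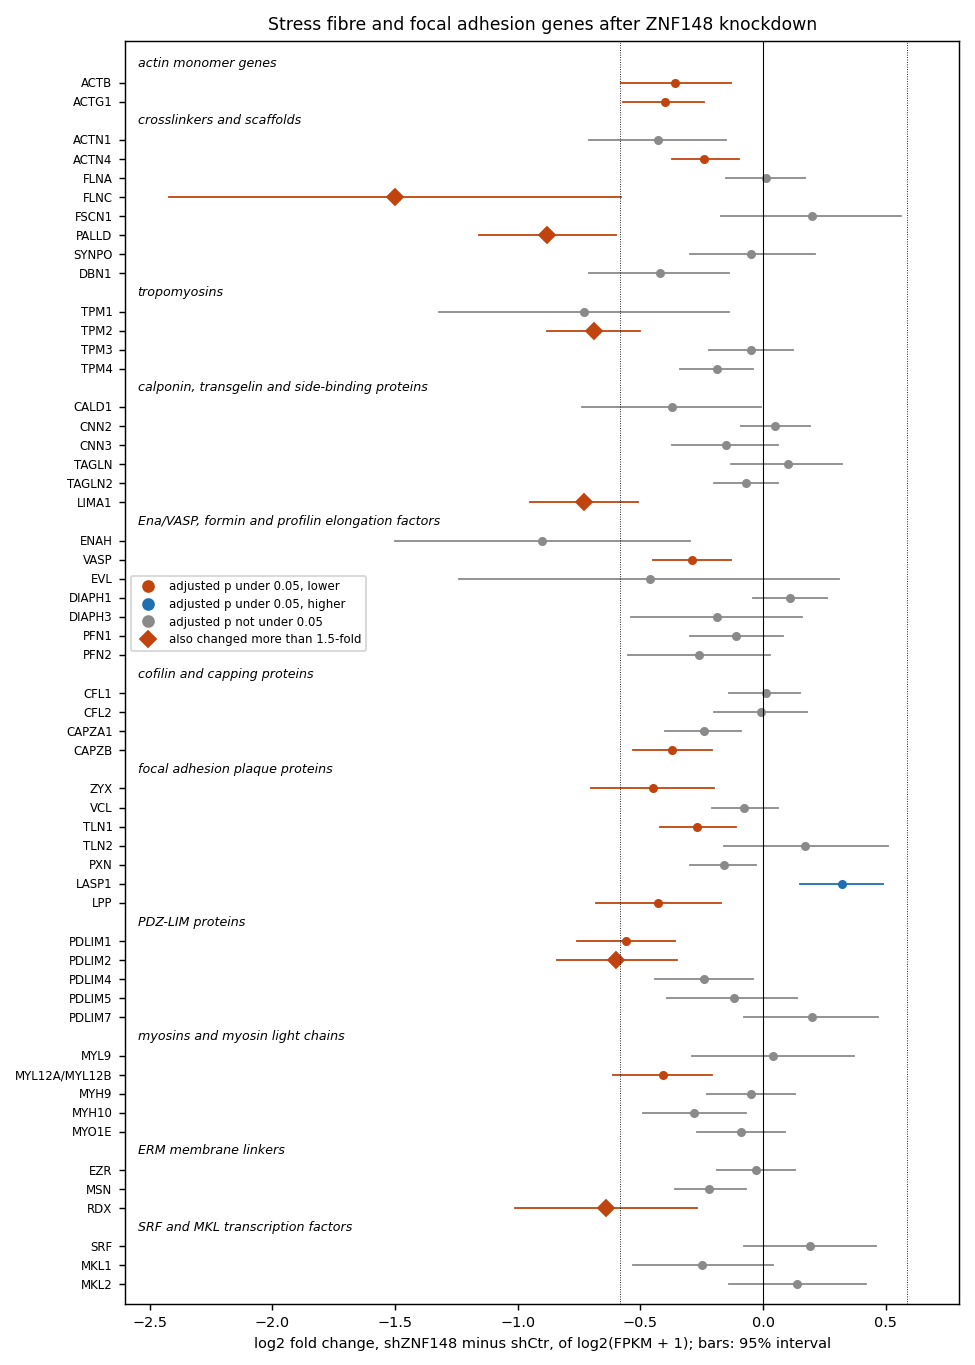
Log2 fold change (shZNF148 minus shCtr, on the log2(FPKM + 1) scale) of the 54 tested members, grouped by role, with the 95% interval as a bar and dotted lines at 1.5-fold. Most points lie left of 0, the 6 diamonds are the members that were lower by more than 1.5-fold at an adjusted p under 0.05, and LASP1 is the only coloured point to the right.

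The samples of a group did not move equally. Taking each sample's median over the 54 members, relative to the shCtr mean, shCtr replicates 1, 2 and 3 were at -0.01, 0.02 and -0.01 and shZNF148 replicates 1, 2 and 3 at -0.16, -0.29 and -0.19 on the log2 scale. In 30 members (55.6%) the lowest of the 6 values was that of shZNF148 replicate 2, which also had the lowest ZNF148 value, and the same held for 26.5% of all genes tested. Without shZNF148 replicate 2, 7 members were lower by both criteria and 19 by adjusted p alone, with a median of -0.18. Without shCtr replicate 1 or without shCtr replicate 3, limma gave 0 members at an adjusted p under 0.05, although 22 and 23 were lower at an unadjusted p under 0.05, and all genes called lower dropped from 441 to 34 and 70. In these 2 fits the adjusted p of PALLD, TPM2 and LIMA1 was at most 0.0632, 0.0561 and 0.0611 and that of PDLIM2 at most 0.0876, with no change of direction. Without shZNF148 replicate 1, PALLD, TPM2 and LIMA1 were the 3 members called.

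**Figure D2:**
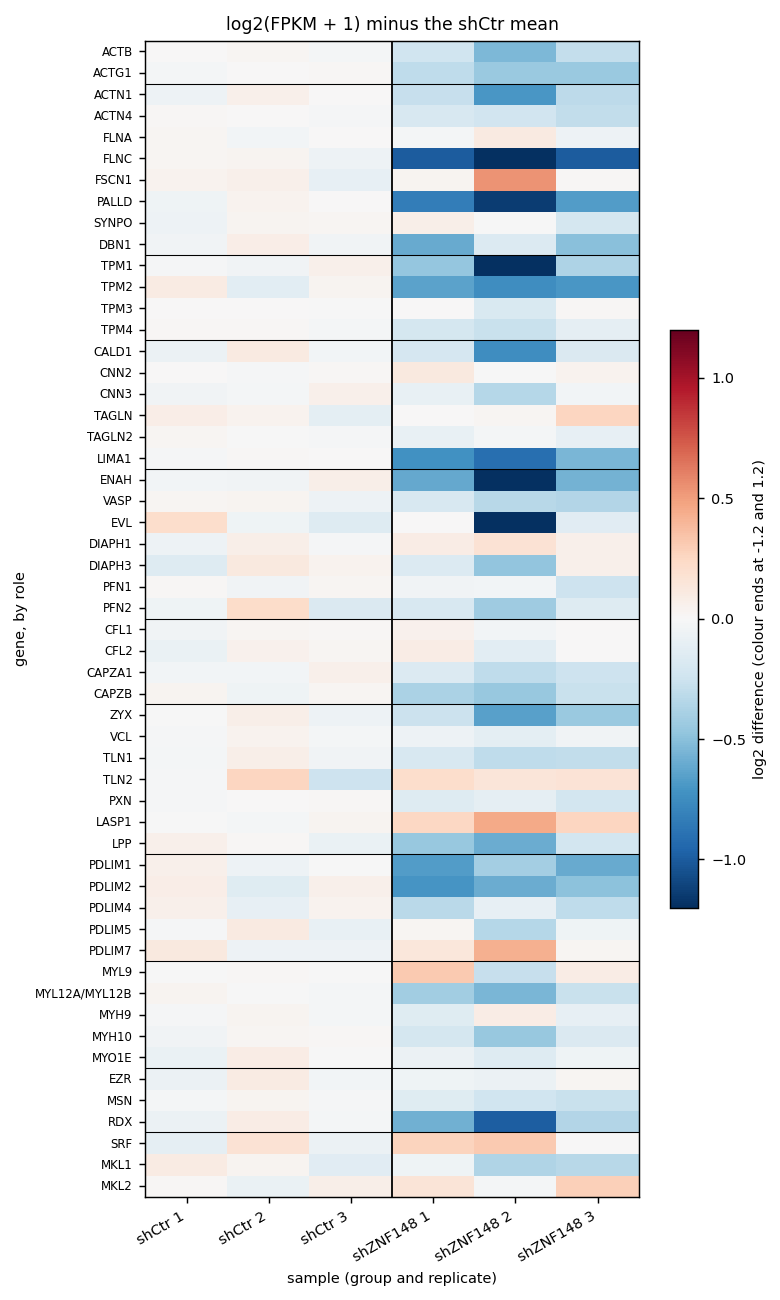
Difference of each sample from the shCtr mean, as log2(FPKM + 1), for the 54 tested members in rows ordered by role and the 6 samples in columns. Blue fills most of the 3 shZNF148 columns and is deepest in replicate 2, as in FLNC, TPM1, ENAH and EVL, while LASP1 is red in all 3.

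Both cytoplasmic actin genes, which encode the filament subunit, were lower. ACTB (beta-actin) was at 2830, 2864 and 2781 FPKM in shCtr replicates 1, 2 and 3 and at 2387, 1940 and 2324 FPKM in shZNF148. ACTG1 (gamma-actin) was at 2282, 2318 and 2344 FPKM in shCtr and 1868, 1697 and 1695 FPKM in shZNF148. In neither gene did the groups overlap, and the highest shZNF148 value of ACTB (2387 FPKM) lay below its lowest shCtr value (2781 FPKM). The log2 fold change was -0.36 ± 0.09 (SE) for ACTB, with an adjusted p = 0.0496 that is close to the threshold, and -0.40 ± 0.07 for ACTG1, with an adjusted p = 0.0190. Together they reached 5140 ± 37.0 FPKM in the controls and 3970 ± 312 FPKM after depletion (SD, n = 3; exact two-sided permutation p = 0.1, the smallest that 3 against 3 can give). The share of ACTB in this sum was 54.96% in shCtr and 55.7% in shZNF148 (exact two-sided permutation p = 0.7). Reads of these near-identical transcripts may have been split between them by the counting. ACTB passed in 5 of 16 alternatives and ACTG1 in 10, and neither passed when shCtr replicate 1, 2 or 3 was left out, nor ACTB without shZNF148 replicate 1 or 3. Under quantile normalization, which ties the highest values of the samples to each other, ACTB differed by -0.02 and ACTG1 by -0.19, and neither passed.

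Among the crosslinkers and scaffolds, FLNC and PALLD were lower by more than 1.5-fold and ACTN4 by less. FLNC, the filamin best known from muscle, which crosslinks filaments, was at 59.2, 59.4 and 55.8 FPKM in shCtr replicates 1, 2 and 3 and 28.6, 9.41 and 28.7 FPKM after depletion. Replicate 2 was far below the other 2 depleted samples, and all 3 lay well below the controls. Its log2 fold change was -1.50 ± 0.39 (SE), the largest among the members, with an adjusted p = 0.0471. Without shZNF148 replicate 2 it was -0.997 with an adjusted p = 0.00177, smaller and in the same direction. The adjusted p of FLNC was over 0.05 when shCtr replicate 1, 2 or 3 or shZNF148 replicate 1 was left out, and reached 0.14.

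PALLD (palladin), a scaffold that binds alpha-actinin and VASP along stress fibres, was at 37.9, 40.5 and 39.6 FPKM in shCtr and 21.6, 17.4 and 24.3 FPKM in shZNF148. The groups lay far apart for their spread, with means of 39.3 ± 1.32 and 21.1 ± 3.49 FPKM (SD, n = 3), a log2 fold change of -0.88 ± 0.12 (SE) and an adjusted p = 0.0113. ACTN4, a non-muscle alpha-actinin, fell by less, with a log2 fold change of -0.24 ± 0.06 and an adjusted p = 0.0390. Its paralogue ACTN1 went from 246 ± 10.8 to 183 ± 28.1 FPKM and the groups did not overlap, but the adjusted p was 0.0527. DBN1 (drebrin) was likewise below the controls in all 3 samples with an adjusted p = 0.0583. FLNA, the main filamin of these cells at 501 to 563 FPKM, overlapped between groups, with a difference of 0.01 and a 95% interval of -0.15 to 0.17. FSCN1 (fascin, the bundler of filopodia) and SYNPO (synaptopodin) also overlapped, with intervals of -0.17 to 0.56 and -0.30 to 0.21.

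The tropomyosins, which wind along the filament and set its access to myosin and cofilin, differed among themselves. TPM2 was at 30.3, 25.8 and 28.9 FPKM in shCtr and 17.8, 16.5 and 17.1 FPKM in shZNF148, with no overlap and a spread of 0.659 FPKM (SD) among the depleted samples. Its log2 fold change was -0.69 ± 0.08 (SE) with an adjusted p = 0.00913. TPM1 was at 116, 114 and 122 FPKM in shCtr and 85.0, 45.2 and 90.9 FPKM in shZNF148, again with replicate 2 far below the other 2. Its log2 fold change of -0.73 ± 0.25 was larger than that of TPM2 but with an adjusted p = 0.0901 it did not pass. Without shZNF148 replicate 2 it was -0.41 with an adjusted p = 0.0129. TPM4, the most abundant at 272 to 331 FPKM, was below the controls in all 3 samples with a log2 fold change of -0.19 ± 0.06 and an adjusted p = 0.0818. TPM3 overlapped, with a 95% interval of -0.22 to 0.12 and a direction that turned to 0.03 under quantile normalization.

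The makeup of the tropomyosin pool was read from summed levels. Summed over the 4 genes controls had 568 ± 2.96 FPKM and depleted cells 469 ± 46.9 FPKM (SD, n = 3). The share of TPM1 was 20.7 ± 0.793% in shCtr and 15.5 ± 4.003% in shZNF148, and that of TPM2 4.99 ± 0.385% and 3.67 ± 0.294%. The share of TPM3 was 16.7 ± 0.0686% and 19.6 ± 0.586%, and that of TPM4 57.6 ± 0.953% and 61.3 ± 3.41%. For each of these 4 shares and for the sum the groups did not overlap, which gives an exact two-sided permutation p = 0.1, the smallest possible, and shares of a total are not independent of each other.

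Of the other proteins bound along filaments, LIMA1 was lower and no calponin or transgelin passed. LIMA1 (EPLIN), which crosslinks filaments and slows their disassembly, was at 77.9, 79.6 and 79.1 FPKM in shCtr and 47.2, 41.7 and 53.5 FPKM in shZNF148. The controls had a spread of 0.868 FPKM (SD) around 78.9 FPKM, and the highest depleted sample was at 53.5 FPKM, with a log2 fold change of -0.73 ± 0.09 (SE) and an adjusted p = 0.0102. CNN1 was listed at 0.182, 0.335 and 0.173 FPKM in shCtr and at 0, 0 and 0.113 FPKM in shZNF148, too low to be tested. CNN2, CNN3 and TAGLN2 were at 114 to 391 FPKM and none passed, with 95% intervals of -0.09 to 0.19, -0.37 to 0.06 and -0.20 to 0.06. TAGLN, known as an SRF target of smooth muscle, shares its value with SIDT2 in the table and overlapped between groups (-0.13 to 0.32). CALD1 (caldesmon), which blocks myosin on the filament, went from 45.8 ± 3.00 to 35.6 ± 7.52 FPKM with an adjusted p = 0.142.

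Of the 7 elongation factors, VASP was the only gene to pass. It fell by 0.29 on the log2 scale, from 66.8 ± 2.27 to 54.5 ± 3.42 FPKM (SD, n = 3), with an adjusted p = 0.0375. ENAH (Mena), which like VASP protects growing filament ends from capping, was at 3.25, 3.22 and 3.56 FPKM in shCtr and 1.83, 0.529 and 1.93 FPKM in shZNF148. The groups did not overlap and the log2 fold change of -0.90 ± 0.25 (SE) was the second in size among the members, but the adjusted p was 0.0573. Without shZNF148 replicate 2 it was -0.59 with an adjusted p = 0.0195. These levels are low, and the log2(FPKM + 1) scale understates changes at such levels. EVL, the remaining family member, was at 5.34, 4.27 and 3.90 FPKM in shCtr and 4.48, 1.29 and 3.99 FPKM in shZNF148. Replicate 2 alone lay apart, and the difference was -0.46 with all samples and -0.06 without it. The formins DIAPH1 and DIAPH3 and the profilins PFN1 and PFN2, which supply and add monomers, overlapped between groups and had log2 fold changes from -0.26 to 0.11.

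CAPZB, a subunit of the capping protein that closes growing filament ends, fell from 124 ± 3.96 to 96.2 ± 6.23 FPKM (SD, n = 3), a log2 fold change of -0.37 ± 0.07 (SE) with an adjusted p = 0.0216. CAPZA1, which encodes an alpha subunit of the same dimer, was also below the controls in all 3 samples, with a log2 fold change of -0.24 ± 0.07 and an adjusted p = 0.0525. The cofilins CFL1 and CFL2, which sever filaments, differed by 0.01 and -0.01, with 95% intervals of -0.14 to 0.15 and -0.20 to 0.18, and the sign of both turned when single libraries were left out.

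**Figure D3:**
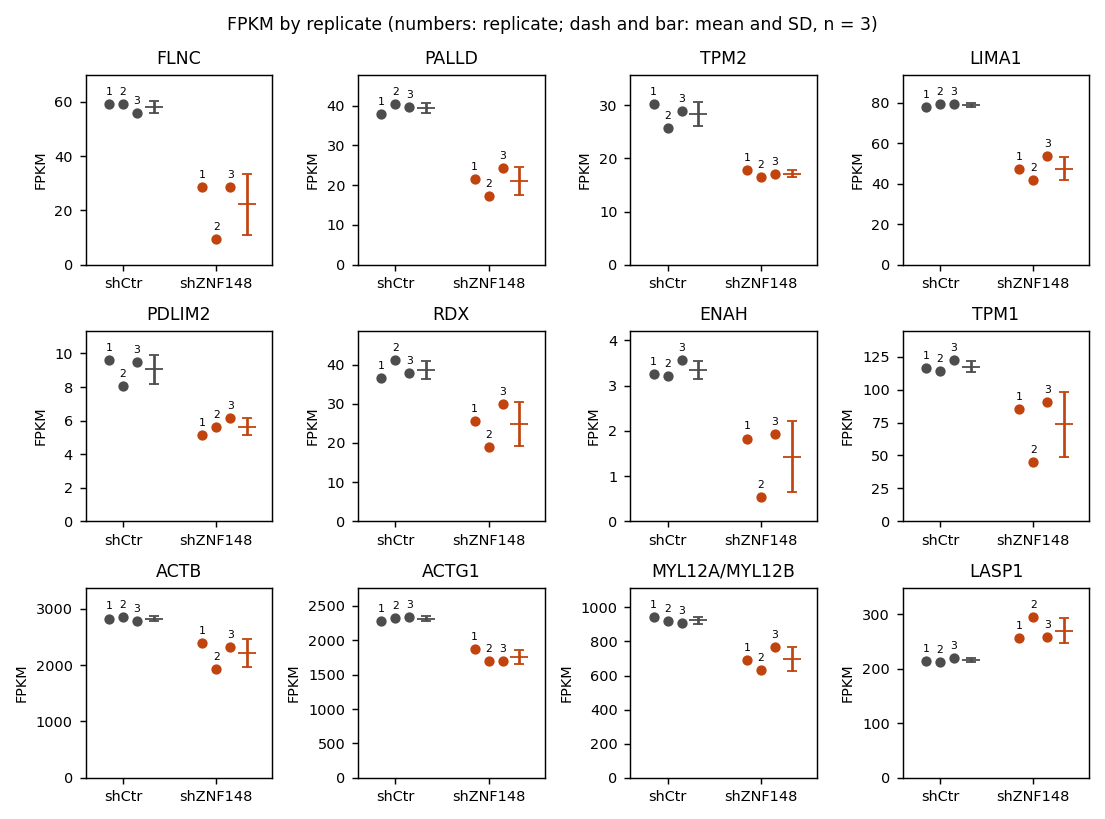
FPKM of 12 members in each replicate (points, numbered) with the group mean and SD (dash and bar, n = 3), each panel on its own axis from 0. In 11 panels every shZNF148 point lies below every shCtr point, with replicate 2 lowest in 9 of these, and in LASP1 every shZNF148 point lies above.

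Of the 7 focal adhesion plaque proteins, 3 were lower and 1 was higher. ZYX (zyxin), a LIM protein that moves to stress fibres under tension, fell from 114 ± 5.32 to 83.4 ± 11.2 FPKM (SD, n = 3), with a log2 fold change of -0.45 ± 0.10 (SE) and an adjusted p = 0.0359. Its relative LPP fell by 0.43 with an adjusted p = 0.0461, as the sum of 2 rows that were lower by 0.32 and 0.47 each and overlapped between groups when taken alone. TLN1 (talin), the link from integrin tails to actin, fell by 0.27 with an adjusted p = 0.0404. LPP and TLN1 each passed in 7 of 16 alternatives and ZYX in 9. Without shZNF148 replicate 2 the adjusted p in limma's test was 0.0637 for LPP, 0.0511 for TLN1 and 0.0324 for ZYX. VCL (vinculin) and PXN (paxillin) lay below the controls in all 3 samples by little, with 95% intervals of -0.21 to 0.06 and -0.30 to -0.03, and did not pass. TLN2, at 2.22 to 3.55 FPKM, overlapped between groups.

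LASP1, which binds actin and zyxin through its SH3, LIM and nebulin-like parts, was the only member to rise by adjusted p. It was at 215, 213 and 220 FPKM in shCtr and 257, 296 and 258 FPKM in shZNF148, with a log2 fold change of 0.32 ± 0.07 (SE) and an adjusted p = 0.0352. Its adjusted p was over 0.05, at most 0.125, when shCtr replicate 1, 2 or 3 or shZNF148 replicate 1 was left out. The table holds LASP1 in 2 rows that moved in opposite directions. The larger was at 203, 210.0 and 211 FPKM in shCtr and 257, 296 and 257 FPKM in shZNF148 (log2 fold change 0.37). The smaller was at 11.5, 3.22 and 9.55 FPKM in shCtr and 0.0965, 0.00926 and 1.05 FPKM in shZNF148 (log2 fold change -2.65), and neither row had overlapping groups (exact two-sided permutation p = 0.1). The rows carry no transcript names, so that which LASP1 transcripts they stand for is not known.

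The PDZ-LIM proteins, adaptors that bind alpha-actinin, split by gene. PDLIM2 was at 9.61, 8.05 and 9.48 FPKM in shCtr and 5.12, 5.64 and 6.15 FPKM in shZNF148, with no overlap, a log2 fold change of -0.60 ± 0.10 (SE) and an adjusted p = 0.0189. PDLIM1, at 102, 93.8 and 97.6 FPKM in shCtr and 61.0, 73.5 and 63.9 FPKM in shZNF148, fell by 0.56 with an adjusted p = 0.0146, just under 1.5-fold. In PDLIM1 and PDLIM2 it was shZNF148 replicate 1, not 2, that was lowest. PDLIM4, PDLIM5 and PDLIM7 overlapped between groups, with log2 fold changes of -0.24, -0.12 and 0.20 and 95% intervals of -0.44 to -0.04, -0.39 to 0.14 and -0.08 to 0.47.

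Of the myosin genes, the regulatory light chains MYL12A and MYL12B were lower and the heavy chains did not pass. These neighbouring, near-identical genes share 1 row, at 946, 918 and 906 FPKM in shCtr and 691, 631 and 768 FPKM in shZNF148. The groups did not overlap, with a log2 fold change of -0.41 ± 0.08 (SE) and an adjusted p = 0.0279, and which of the pair moved cannot be told apart. MYL9, another regulatory light chain, was at 156, 159 and 157 FPKM in shCtr and 195, 130 and 167 FPKM in shZNF148, on both sides of the controls, with a 95% interval of -0.29 to 0.37. It is the sum of a main row that differed by -0.00 and a row of 1.84 to 17.5 FPKM that differed by 0.95. The share of MYL9 in the light chain sum was 14.6 ± 0.322% in shCtr and 19.0 ± 2.66% in shZNF148, without overlap (exact two-sided permutation p = 0.1), while the sum was 1080 ± 19.9 and 860.4 ± 89.8 FPKM. MYH9, the more abundant of the 2 heavy chains of non-muscle myosin II read here, at 324 to 382 FPKM, overlapped, with a 95% interval of -0.23 to 0.13. MYH10 was below the controls in all 3 samples with a log2 fold change of -0.28 ± 0.09 and an adjusted p = 0.0786, and MYO1E overlapped.

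Of the ERM proteins, which tie the filament network to the membrane, RDX (radixin) was lower. It was at 36.6, 41.1 and 37.9 FPKM in shCtr and 25.5, 18.9 and 29.9 FPKM in shZNF148, with a log2 fold change of -0.64 ± 0.16 (SE) and an adjusted p = 0.0418. Without shZNF148 replicate 2, the lowest sample, it was -0.46 with an adjusted p = 0.0263, a change of less than 1.5-fold, and over the fits without shCtr replicate 1, 2 or 3 or shZNF148 replicate 1 the adjusted p was at most 0.118. MSN (moesin), the most abundant of the 3 at 174 to 215 FPKM, lay below the controls in all 3 samples with a log2 fold change of -0.22 ± 0.06 and an adjusted p = 0.0549. EZR (ezrin) overlapped (-0.19 to 0.13).

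The RNA of the transcription factors that act on this programme did not pass. SRF was at 35.04, 42.9 and 36.1 FPKM in shCtr and 45.8, 47.3 and 37.9 FPKM in shZNF148. MKL1 was at 5.90, 5.61 and 4.88 FPKM in shCtr and 5.23, 4.02 and 4.13 FPKM in shZNF148, and MKL2 at 2.42, 2.21 and 2.56 and 2.79, 2.34 and 3.13 FPKM. All 3 overlapped between groups, and the adjusted p was 0.272, 0.193 and 0.443. The log2 fold changes were 0.19, -0.25 and 0.14, with 95% intervals of -0.08 to 0.46, -0.53 to 0.04 and -0.14 to 0.42. Differences within these bounds are compatible with the values. RNA levels do not show where in the cell the MKL proteins were.

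Set beside the promoter letters printed above, the members that were lower and those that did not pass can be compared by the motifs they held. A CArG box was found in 2 of 15 members that were lower by adjusted p and had a window (13.3%, ACTG1 and LPP) and in 6 of 33 that did not pass (18.2%). CCCCTCCCC was found in 5 of 15 (33.3%, FLNC, PALLD, TPM2, CAPZB and LPP) and in 9 of 33 (27.3%), among them ENAH, VCL and EZR. Of the genes lower by more than 1.5-fold, LIMA1 and RDX had windows without either motif. These counts are small and were not tested, and genes with several windows had more letters to match.

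The genes that act on the filaments from outside the list were read in 2 further lists. Of 21 genes of the Arp2/3 complex and its activators, which build branched networks, limma's test gave 0 at an adjusted p under 0.05, the median was -0.06, and 7 lay below and 3 above the controls in every sample, against 21.3% and 20.1% of all genes. Of 27 tested adhesion kinases and adaptors, 7 were lower and 0 higher by adjusted p, against 8.70% and 5.88% of all genes, with a median of -0.11. In every sample 13 of these 27 lay below and 7 above the controls. The adaptors past 1.5-fold were the LIM proteins FHL1, FHL2 and CSRP2.

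FHL1 was at 11.1, 10.6 and 9.10 FPKM in shCtr and 2.84, 0.768 and 2.98 FPKM in shZNF148, a log2 fold change of -1.91 ± 0.31 (SE) with an adjusted p = 0.0170. FHL2, an adaptor of focal adhesions that also enters the nucleus, was at 43.1, 47.7 and 46.7 FPKM in shCtr and 21.5, 10.6 and 21.7 FPKM in shZNF148, a log2 fold change of -1.37 ± 0.25 with an adjusted p = 0.0216. In both genes replicate 2 was again the lowest, and all 3 depleted samples lay below the controls. CSRP2, which binds alpha-actinin and filaments, was at 10.6, 11.4 and 14.4 FPKM in shCtr and 7.97, 4.46 and 7.59 FPKM in shZNF148, with a log2 fold change of -0.80 ± 0.21 and an adjusted p = 0.0485 close to the threshold. CSRP2 was called in 6 of 16 alternatives and in none of the 6 fits that left out 1 sample, where its adjusted p was at most 0.144. Without shZNF148 replicate 2 its log2 fold change was -0.57 with an adjusted p = 0.0393, a change of less than 1.5-fold. Without shCtr replicate 1, 2 or 3 the adjusted p of FHL1 and FHL2 was over 0.05, at most 0.0807 and 0.0857.

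**Figure D4:**
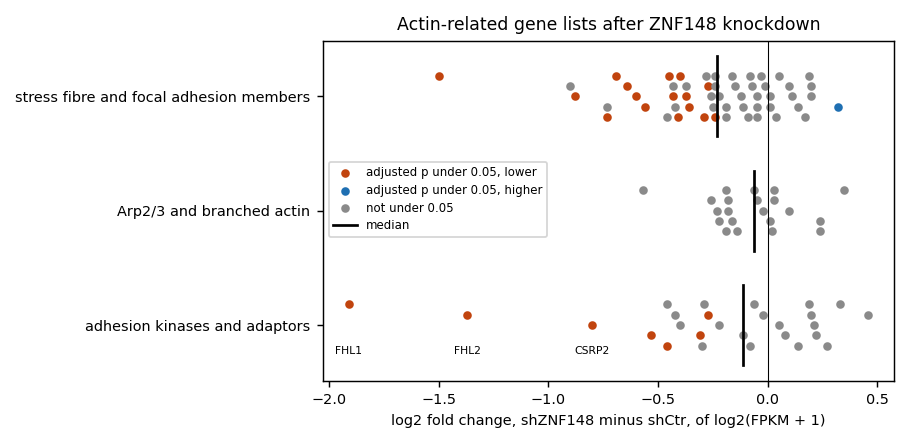
Log2 fold change (shZNF148 minus shCtr, on the log2(FPKM + 1) scale) of each tested gene in the stress fibre and focal adhesion list and in 2 further actin-related lists, with the median as a black line. The medians are -0.23 for the members, -0.06 for Arp2/3 and -0.11 for adhesion kinases and adaptors. Names are given only in the 2 further lists, for genes past 1.5-fold at an adjusted p under 0.05, and members are not named.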

How the data were processed

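FPKM values for the 6 samples were deposited as 1 table, in which 0 sample columns stayed unused. The submitters' processing notes list bcl2fastq 2.17.1.14, TopHat2 2.0.14, Cufflinks 2.2.1 and Cuffnorm 2.2.1 with the builds hg18 and hg19, whereas the paper's methods name Salmon, GRCh38 and DESeq2. Which of these made the deposited FPKM values is not given in the sources used here. FPKM values are not counts, so no count test was run and sequencing depth is unknown.

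The table has 24108 rows, of which 7115 are at 0 in all samples and 733 join several symbols. All rows holding a symbol, after splitting at commas, were summed to 22414 gene values, 805 of them from several rows (members: LASP1, LPP and MYL9). Genes with a mean of at least 1 FPKM were fitted as log2(FPKM + 1) in limma 3.58.1 (R 4.3.3) on condition alone. The eBayes step used a mean-variance trend, and the Benjamini-Hochberg adjustment ran over 11522 genes. A call needed both an adjusted p under 0.05 and more than a 1.5-fold difference. Intervals are 95% intervals of the fit. Sums and shares were tested by exact two-sided permutation (SciPy 1.17.1), whose smallest p is 0.1. On simulated data with 200 of 11522 genes changed, 90.5% were recovered with 4 false calls. That share covers all sizes set there together, and recovery at the members' median log2 fold change of -0.23 was not tested.

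The members and lists were chosen with earlier results of these data known. Values in every sample are given for members that were called, that differed by more than 1.5-fold without overlap, whose rows disagree, for SRF, MKL1 and MKL2 and for near-identical pairs. EVL and CNN1 were added after their values were seen, as were PDLIM1's values. From the further lists called genes are named, and 1 further list, with 1 gene called higher and 0 called lower, is not reported here. The replicate numbers were not used to pair the samples in the main fit. The correlation of deviations between same-numbered samples was 0.0145, -0.0982 and 0.0229. These values show no sign of pairing, but with 3 samples a group and no test they cannot exclude it. Promoter letters came from RefSeq (GRCh38.p14), and the table itself has no coordinates. The 16 alternatives varied the filter, pseudocount, scaling, block, trend, row handling and samples.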

Additional observations from a re-analysis of the deposited data

How the results depend on the processing

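The number of calls differed with the library left out and with the settings of the fit. When each of the 6 samples was left out in turn, the members lower by both criteria ranged from 0 to 7, those lower by adjusted p alone from 0 to 19 and those higher by adjusted p alone from 0 to 1. Over all genes the same fits called 34 to 414 lower and 2 to 238 higher. The 2 fits with 0 members lower left out shCtr replicate 1 or shCtr replicate 3, and without shZNF148 replicate 1 there were 3 by both criteria. The 16 members lower by adjusted p alone became 8 without the filter on low values, 8 under quantile normalization and 9 without the variance trend, and the 1 higher became 0 without the filter and without the trend. With a pseudocount of 5 FPKM, all genes called were 206 lower and 77 higher, against 441 and 223. The members' median was -0.15 under quantile normalization and between -0.24 and -0.18 in the other alternatives. With the replicate number as a block, 3 members were lower by both criteria (PALLD, TPM2 and LIMA1), 4 were lower and 0 higher by adjusted p alone, and all genes called were 267 lower and 129 higher. The numbers are not known to mark shared cultures. The causes of these changes were not tested, beyond the fewer samples of the fits that left 1 out.

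PALLD, TPM2 and LIMA1 were called in 14 of 16 alternatives, PDLIM2 in 11, FLNC in 8 and RDX in 6, none with a change of sign, and ENAH and PDLIM1 were called in 2 each. The adjusted p of the first 3 was at most 0.0632, 0.0561 and 0.0611, without shCtr replicate 1 or 3. The sign turned only in members with log2 fold changes near 0. Under quantile normalization TPM3 was at 0.03 and EZR at 0.02, and MYL9 was at -0.00 from its highest row. In the fits that left out 1 library, CFL1 reached -0.02, FLNA -0.01 and -0.04, and TPM3 0.01, while CFL2 ranged from -0.06 to 0.05, EZR from -0.07 to 0.01, MYL9 from -0.09 to 0.20 and SYNPO from -0.11 to 0.03. The number of reads is unknown, so that the precision of low values such as those of ENAH, EVL and MKL2 cannot be stated.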

Other observations

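Anillin (ANLN), the scaffold that joins actin, myosin and septins in the contractile ring, was at 230, 230 and 247 FPKM in shCtr replicates 1, 2 and 3 and at 166, 112 and 173 FPKM in shZNF148, without overlap. Its log2 fold change was -0.67 ± 0.16 (SE) with an adjusted p = 0.0386 in limma's test, and -0.48 with an adjusted p = 0.0084 without shZNF148 replicate 2, a change of less than 1.5-fold. The adjusted p was over 0.05 without shCtr replicate 1, 2 or 3 (at most 0.12). The 7 septin symbols of the same list matched no gene value of their own and were not analysed here.

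Of 8 smooth muscle markers, 3 passed the filter on low values. MYOCD, the SRF cofactor of smooth muscle (like ACTA2 and SYNM, named after its values were seen), was listed at 0 in all samples. ACTA2 was at 16.3, 22.9 and 15.8 FPKM in shCtr and 14.2, 24.6 and 11.7 FPKM in shZNF148, on both sides of the controls, with a 95% interval of -0.80 to 0.48. SMTN, also named after its values were seen, was at 32.3, 32.6 and 31.7 FPKM in shCtr and 28.2, 21.3 and 26.2 FPKM in shZNF148, without overlap. Its log2 fold change was -0.35, with a 95% interval of -0.60 to -0.10 and an adjusted p = 0.0674 in limma's test. Of the 3 tested, 1 (SYNM) was higher by adjusted p, against 5.88% of all genes, at 0.55 (adjusted p = 0.0270 in limma's test). By both criteria 0 were lower, against 3.83% of all genes. Of the 4 markers of the line, 2 (CD44 and AXL) were lower by adjusted p, against 8.70% of all genes, and 0 past 1.5-fold. All 4 had negative log2 fold changes, against 49.2% of all genes, with a median of -0.26, beside 0.01. In 3 every shZNF148 value lay below every shCtr value, against 21.3% of all genes. Of 6 luminal and epithelial markers 2 (GATA3 and EPCAM) were tested and 0 passed. Of 6 leukocyte and endothelial markers 0 reached the filter, PTPRC being at most 0.115 FPKM and CDH5 at most 0.0543 FPKM. The highest of them was CD14, at 0.470, 0.863 and 0.745 FPKM in shCtr and 0.750, 2.015 and 0.972 FPKM in shZNF148, with overlap between groups.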
